A study of Mus musculus with 2 samples.

Results

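N6-methyladenosine (m6A) is a methyl mark on messenger RNA that is placed, read and removed by separate groups of proteins. Writers place the mark, readers bind it and pass the transcript on to splicing, export, translation or decay, and erasers such as FTO take it off. The 10 genes described here are writers and readers of this mark (Mettl3, Mettl14, Wtap, Rbm15, Ythdf1, Ythdf2, Ythdf3, Ythdc1, Ythdc2 and Igf2bp2). They are represented by every probe whose accession belongs to one of these genes, which gave 16 probes of the 27224 probes that could be named for 20653 genes.

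The samples were MIN6 cells, a beta cell line from an insulinoma of a transgenic mouse, used at passages 15 to 20. One culture carried the lentiviral vector PLVX-IRES-ZsGreen-mFTO, which expresses mouse FTO together with the green protein ZsGreen, and the control carried PLVX-IRES-ZsGreen without the FTO insert. Both cultures were therefore transduced, in the presence of polybrene, and green fluorescence was checked after 48 h, while the time of RNA extraction is not given in the sources used here. Bulk RNA of each was hybridized to a single-color Agilent mouse array, with 1 array per condition. With a single array on each side, no difference below has a replicate check or a p-value, and precision is limited accordingly.

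The 12 beta cell markers examined, Ins1, Ins2, Pdx1 and Mafa among them, were all well above background on both arrays, with signals of at least 5179. The markers of acinar cells, fibroblasts, immune cells and endothelium had signals of at most 1241, and those of the other islet cells reached 257411 at Gcg, the glucagon gene. Most of these markers were also well above background on both arrays, so that call does not set beta cells apart. They were 5 of 5 acinar, 2 of 3 fibroblast, 2 of 3 endothelial and 4 of 4 other islet markers, and the 2 immune markers with a probe. In bulk RNA, fewer cells of a type and less RNA per cell cannot be told apart. The probe of Fto, the overexpressed gene, had a signal of 7301 on the FTO array and 5179 on the control array, a normalized log2 difference of 0.06 that is smaller than the spot error of 0.20. Whether this probe lies inside the cloned coding sequence is not given in the sources used here, so it does not check the labels, and each direction below rests on them. The spot error is the combined error estimate of both spots from the array software on the log2 scale, and it covers neither the cells nor the RNA preparation. It was 0.20 at every member probe with a mean log2 signal over 10, so at bright probes it acts as a nearly fixed cut-off.

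None of the 10 writers and readers differed by 2-fold or more between the arrays. The normalized log2 differences of their brightest probes, FTO minus control, lay between -0.11 for Mettl3 and 0.32 for Igf2bp2, with a median of 0.0084, and 6 were above 0 and 4 below. Over all 18513 named genes tested, meaning those measurable above background on either array, the median was 0.0064, and 3.21% had a probe over 2-fold different. At 1.5-fold the counts were 0 of 10 against 8.49% of all named genes, and the member probe nearest to that threshold was a dim probe of Ythdf2, at 1.48-fold. Since 9 of the 10 brightest probes had a mean log2 signal over 10, the closer background is the 9991 named genes as bright as that, of which 0.49% differed by 1.5-fold at the brightest probe. A count of 0 among 10 genes is near that share and is no result about the members.

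**Figure D1:**
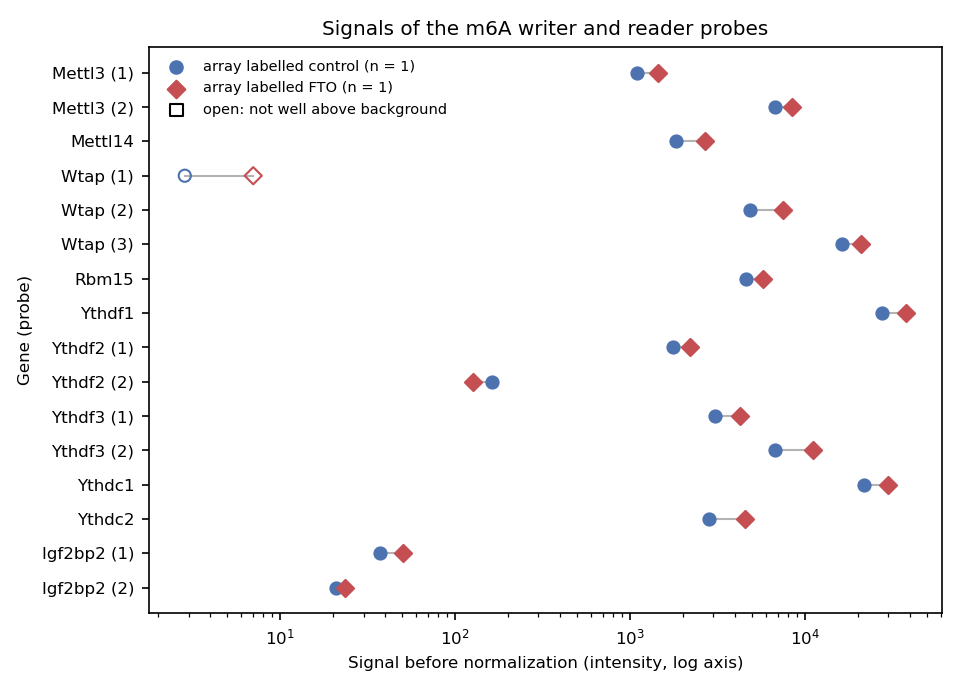
Signal of each of the 16 probes of the m6A writers and readers on the array labelled control (circles) and on the array labelled FTO (diamonds), on a log axis, before normalization; open symbols were not well above background. The FTO symbol lies to the right of the control symbol at every probe but the dim Ythdf2 probe, and before normalization the median log2 difference was 0.44 over the members and 0.37 over all named genes.

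Mettl3 and Mettl14 form the core of the methyltransferase complex, in which METTL3 carries the catalytic site and METTL14 holds the RNA. The brighter Mettl3 probe had a signal of 8458 on the FTO array and 6759 on the control array. The other Mettl3 probe had 1442 on the FTO array and 1098 on the control array. Both probes were brighter on the FTO array before normalization, and after it the log2 differences were -0.11 and 0.0051, each smaller than its spot error of 0.20. Mettl14 had a single probe, with a signal of 2675 on the FTO array and 1823 on the control array. Its normalized log2 difference of 0.16 was smaller than its spot error of 0.20. Neither core gene thus differed by more than the spot error at any probe.

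Wtap encodes the adaptor that keeps the complex in nuclear speckles, and Rbm15 an RNA-binding subunit that guides it to its targets. The brightest Wtap probe (NM_175394) had a signal of 21008 on the FTO array and 16285 on the control array. A probe of another Wtap accession (NM_001113533) had 7539 on the FTO array and 4881 on the control array. Their normalized log2 differences had opposite signs, at -0.08 and 0.21, and the 2nd of these was just larger than its spot error of 0.20. A further NM_175394 probe, with signals of 7.02 and 2.85, was well above background on neither array and gives no fold. Rbm15 had a single probe, with a signal of 5783 on the FTO array and 4616 on the control array. Its log2 difference of -0.09 was within the spot error of 0.20.

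**Figure D2:**
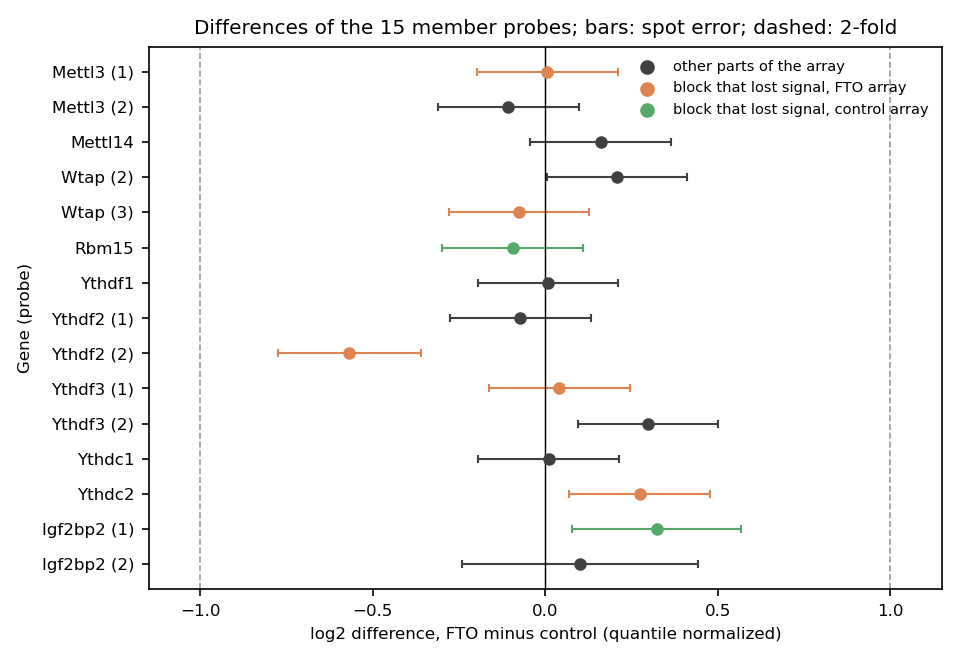
Normalized log2 difference, FTO minus control, of the 15 probes that were well above background (points), with the spot error as bars and 2-fold as dashed lines; colors mark where on the array a spot lies. No point reaches a dashed line, and 5 points lie farther from 0 than their bar is long. Of all named probes tested, dim ones included and whatever their own spot error, 30.9% lay at least as far from 0 as the nearest of these 5.

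Ythdf1, Ythdf2 and Ythdf3 encode closely related cytoplasmic proteins that bind m6A through a YTH domain and act on translation and decay of the bound transcripts. The Ythdf1 probe had a signal of 37832 on the FTO array and 27772 on the control array, which after normalization left a log2 difference of 0.0074. By its brightest probe under quantile normalization Ythdf1 was thus nearest to 0, an order that changed with other scalings. The brighter Ythdf2 probe had a signal of 2209 on the FTO array and 1767 on the control array, a log2 difference of -0.07. The dim Ythdf2 probe had 126 on the FTO array and 162 on the control array, the only member probe that was well above background and brighter on the control array before normalization.

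This dim Ythdf2 probe had the largest difference of the 15 probes, -0.57 on the log2 scale against a spot error of 0.21, or 1.48-fold lower on the FTO array. Its spot lies in an area of 6 adjoining blocks of the FTO array where dim spots lost signal. Of the spots of 79 repeated probes, 29.0% in these blocks fell short of their own probe's median by over 0.5 on the log2 scale, against 1.86% elsewhere on that array. The blocks were chosen by the share of these same spots, so this contrast follows from the choice. Among named probes with a mean log2 signal from 6 to 8, the range of this probe, 19.7% of those in the area had a log2 difference of -0.5 or lower, against 4.17% elsewhere. The part of the area in the Ythdf2 value was not tested.

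Ythdf3 had the largest difference among the bright probes. Its brighter probe had a signal of 11161 on the FTO array and 6738 on the control array. The log2 difference of 0.30 exceeded the spot error of 0.20, a 1.23-fold higher signal on the FTO array. Of the 4693 named probes with a mean log2 signal from 12 to 14, 1.94% were at least as high. This share counts the upward direction only, and the probe is singled out as the largest of the bright member probes. The other Ythdf3 probe had 4241 on the FTO array and 3079 on the control array, and its log2 difference was 0.04. Both probes carry the same accession (NM_172677), and only the brighter one differed by more than its spot error. The other one lies in the area of the FTO array that lost signal among dim spots. At its signal the median difference of named probes was 0.05 in that area and -0.0018 elsewhere. The part of the area in its value was not tested. The dimmer Mettl3 probe and the brightest Wtap probe also lie in this area.

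Ythdc1 encodes the nuclear YTH reader, which acts on splicing and export, and Ythdc2 a reader with an RNA helicase domain that is known for its role in meiosis. The Ythdc1 probe had a signal of 29884 on the FTO array and 21889.7 on the control array, a log2 difference of 0.0094. The Ythdc2 probe had 4570.1 on the FTO array and 2831 on the control array, or 1.21-fold after normalization, and this log2 difference of 0.27 exceeded the spot error of 0.20. Ythdc2 was thus higher on the FTO array by more than its spot error while Ythdc1 was near 0. Of the 4154 named probes with a mean log2 signal from 10 to 12, 4.96% were at least as high as Ythdc2, a share that counts the upward direction only. The Ythdc2 spot lies in the area that lost signal among dim spots. At the signal of Ythdc2 the median difference of named probes was 0.05 in that area and -0.0018 elsewhere.

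Igf2bp2 encodes an RNA-binding protein of another family, which stabilizes m6A-marked transcripts and lies at a locus tied to type 2 diabetes in people. Both of its probes were dim. One had a signal of 50.1 on the FTO array and 37.3 on the control array, and the other 23.5 and 21.0. Their log2 differences were 0.32 with a spot error of 0.25 and 0.10 with a spot error of 0.34. The first value is the highest of the 10 genes, but 21.6% of the 3846 named probes with a mean log2 signal from 4 to 6 were at least as high. Scaling each array by its 75th percentile in place of quantile normalization moved the differences to 0.02 and -0.24, so no direction can be given for Igf2bp2. The first probe also lies in a block of the control array where 18.2% of 11 repeated spots lost signal, as does the Rbm15 probe in a block where the share was 18.2% of 22 spots.

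**Figure D3:**
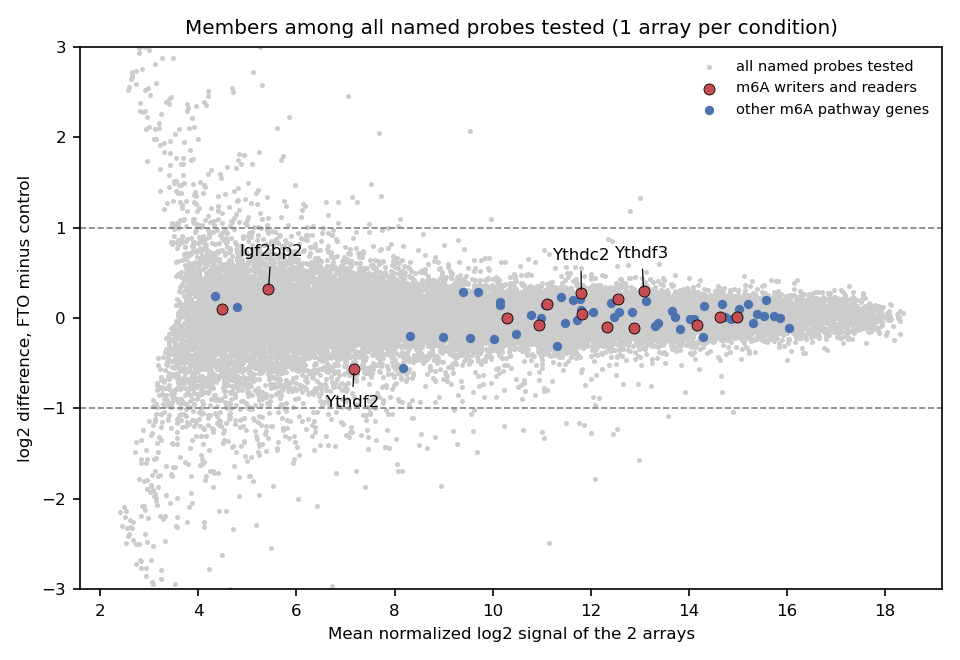
Normalized log2 difference, FTO minus control, against mean normalized log2 signal for all named probes tested (grey), the other m6A pathway genes (blue) and the m6A writers and readers (red); dashed lines mark 2-fold, and 41 grey probes lie beyond the axis limits of 3. The members lie in the grey cloud, with Ythdf3 near its upper edge at high signal and the dim Ythdf2 probe in its lower part.

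Ordered by the brightest probe, Igf2bp2, Ythdf3 and Ythdc2 came first, followed by Mettl14, Ythdc1, Ythdf1, Ythdf2, Wtap, Rbm15 and Mettl3. The largest step between neighbours in this order was 0.15, between Mettl14 and Ythdc1, which is smaller than the spot error of either. From first to last the order spans 0.43. Of the 15 probes, 5 differed by more than their spot error, namely 1 each of Wtap, Ythdf2, Ythdf3, Ythdc2 and Igf2bp2. The Wtap difference was the smallest of these 5. Of all named probes tested, dim ones included, 30.9% lay at least as far from 0 as that Wtap probe. Of the named probes with a mean log2 signal from 12 to 14, the range of this probe, 7.07% were at least as high, upward direction only. Both shares use a fixed distance rather than each probe's own spot error, so neither is a matched background for the count of 5. The share of all named probes beyond their own spot error was not computed, and the count is no result about the members. Spots of probes printed 10 times, with outlier spots left out, had a median SD of 0.06 on the FTO array and 0.05 on the control array at log2 signals from 10 to 13. These SDs describe copies of a bright probe on the same array, while the spot error combines both arrays, so their sizes are not directly comparable.

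Several members could be compared between probes. Among them, 5 genes had a pair of probes that both arrays measured well above background. Under quantile normalization the sign of the difference was shared in 3 (Ythdf2, Ythdf3 and Igf2bp2) and opposite in 2 (Mettl3 and Wtap). This split depended on the processing. With 75th percentile scaling and with cyclic loess the Mettl3 pair shared a sign and the Igf2bp2 pair did not. The gap between the pair was 0.11 for Mettl3, 0.22 for Igf2bp2, 0.26 for Ythdf3, 0.28 for Wtap and 0.50 for Ythdf2. Over the 3837 named genes with such a pair the median gap was 0.14, and 9.30% had a larger gap than Ythdf2. For the 1592 of them with both probes bright, the median gap was 0.10, the 90th percentile 0.277 and the 95th percentile 0.33. The gaps of Mettl3, Ythdf3 and Wtap, whose compared probes are all bright, stayed under the 95th percentile. That of Wtap, at 0.284, was above the 90th percentile. The remaining 5 members were each tested with 1 probe and have no such check.

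**Figure D4:**
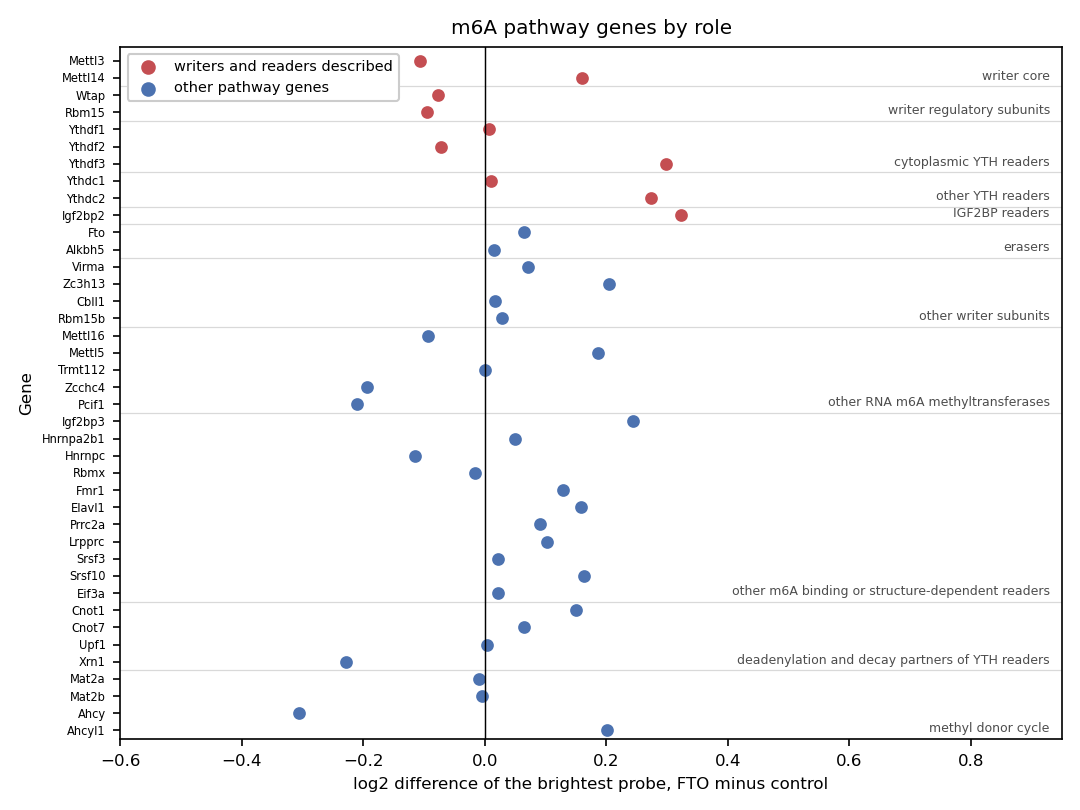
Normalized log2 difference, FTO minus control, of the brightest probe of each m6A pathway gene, with the writers and readers described here in red and the other pathway genes in blue, grouped by role. All 40 genes lie between -0.30 (Ahcy) and 0.32 (Igf2bp2).

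The other genes of the pathway were taken from a list of 32 genes, of which 30 were measurable above background on either array. The exceptions were Igf2bp1 and Meioc. None of the 30 differed by 2-fold or by 1.5-fold, against 3.21% and 8.49% of all named genes and 0.49% of the bright ones at 1.5-fold, and 27 of the 30 were that bright, so these counts are no result about the list. The median log2 difference was 0.03, with 21 above 0 and 9 below, where 51.6% of all named genes lay above 0. With the mean of each gene's probes the split was 18 above 0 and 12 below. Both erasers were within the spot error, with Fto at 0.06 and the brightest probe of Alkbh5, which encodes the other known m6A demethylase, at 0.02, with signals of 32189 on the FTO array and 23526 on the control array.

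Among the other writer subunits, all 4 were above 0 at the brightest probe and 2 of 4 with the mean of probes. The brightest probes ran from 0.02 for Cbll1, an E3 ligase-like subunit, to 0.20 for Zc3h13, which anchors the complex in the nucleus. The 2nd Zc3h13 probe was at -0.22 and the 2nd Cbll1 probe at -0.05. The separate RNA methyltransferases, listed together with Trmt112, ran from -0.21 for Pcif1, which methylates the cap-adjacent adenosine, to 0.19 for Mettl5, which acts on ribosomal RNA. On this list 2 of 5 genes were above 0 at the brightest probe and 0 of 5 with the mean of probes. A dim Mettl5 probe was at -0.55 and lies, like the dim Ythdf2 probe, in the area of the FTO array that lost signal.

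On the list of other readers, which also holds the splicing factors Srsf3 and Srsf10, 9 of 11 genes were above 0. The values ran from -0.12 for Hnrnpc, a splicing regulator that binds RNA opened by m6A, to 0.24 for Igf2bp3. The Igf2bp3 probe had dim signals of 22.6 and 18.5 and a spot error of 0.37. Among the decay partners of YTH readers, Cnot1, the scaffold of the main deadenylase, was at 0.15 and Xrn1, a 5′ to 3′ exonuclease, at -0.23. In the methyl donor cycle, Ahcy, which clears the product of each methylation step, was at -0.30 at its brightest probe and at -0.18 at its other probe. Its relative Ahcyl1 was at 0.20 and 0.08. The brightest Ahcy probe and both Ahcyl1 probes lie in blocks of the control array that lost signal, and the part of these blocks was not tested.

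**Figure D5:**
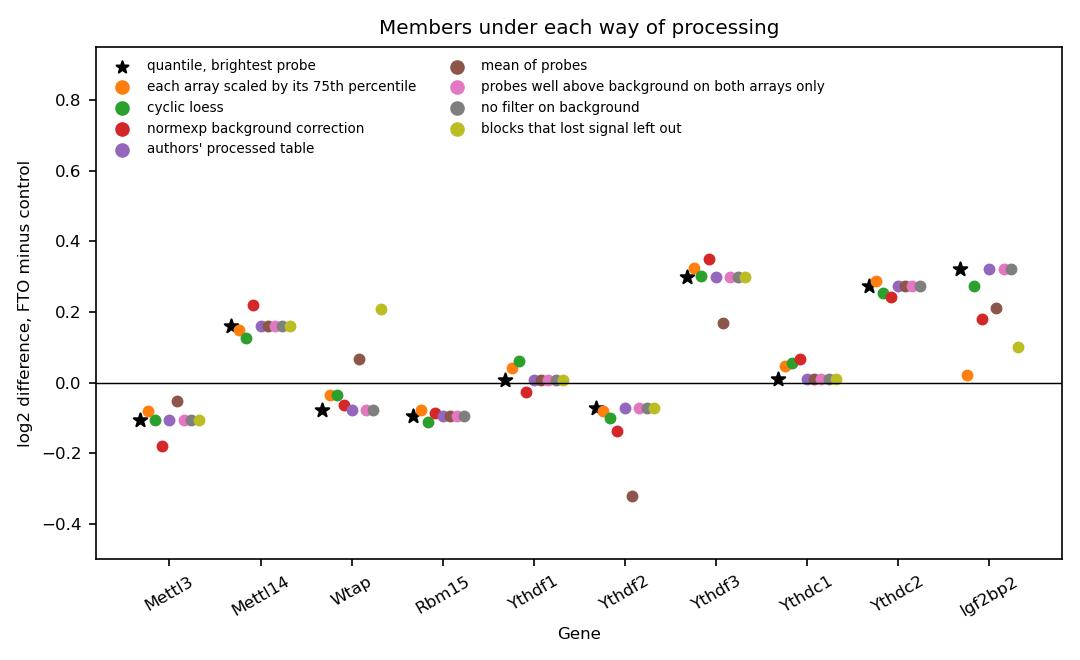
Log2 difference, FTO minus control, of each writer and reader under quantile normalization with the brightest probe (stars) and under the 8 other ways of processing (points). Ythdf3, Ythdc2, Mettl14 and Ythdc1 stay above 0 and Mettl3, Rbm15 and Ythdf2 below 0 under all of those that gave a value, Wtap changes sign with the probe used, and Igf2bp2 ranges from 0.02 to 0.32.

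The direction of a member depended on the processing for Wtap, for Ythdf1 and, at the dimmer probe of each, for Igf2bp2 and Mettl3. Wtap moved from -0.08 to 0.07 with the mean of its probes and to 0.21 with the probe in the area that lost signal left out. Ythdf1 lay between -0.03 and 0.06. Ythdf3 lay between 0.17 and 0.35, Ythdc2 between 0.24 and 0.29, Mettl14 between 0.13 and 0.22 and Mettl3 between -0.18 and -0.05 by gene. The dimmer Mettl3 probe alone was at 0.0051 under quantile normalization and at -0.0106 with 75th percentile scaling.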

How the data were processed

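Total RNA of 2 MIN6 cultures was labeled with Cy3 and hybridized to Agilent arrays, both read in 1 scan of the same slide, with 1 array per condition and groups taken from the sample labels. The authors deposited the processed intensity of every spot from Agilent Feature Extraction 11.0.1.1, already corrected for background but not scaled between arrays, together with raw medians and flags of 0 or 1. They also deposited log2 values, for which their methods name quantile normalization in GeneSpring. Control spots and outlier spots were left out, no spot was saturated, and copies of a probe were averaged as log2 values. Quantile normalization of 39417 probes used limma 3.58.1 (R 4.3.3), and all other steps Python 3.11.15 with pandas 2.3.3, numpy 2.4.6 and matplotlib 3.10.9. Tested probes are those flagged as well above background on either array (for probes printed 10 times, on at least 50% of spots). A gene was called where any tested probe differed by over 2-fold, and its value is that of its brightest tested probe. This replaces a test across samples, which 1 array per condition does not allow.

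Probes were named through accessions in the RefSeq annotation GRCm38.p6. The array design lists another build, so no coordinates are given. For surface effects the array was divided into 35 blocks, and signal was taken as lost in a block once 15% or more of its spots of repeated probes (median log2 signal 4.5 to 8) fell short of their own probe's median by over 0.5. The 10 members, the lists and the tests were chosen with earlier results of these data known. Named in the text are all members, the erasers, and in each role list the genes with the highest and the lowest difference. The alternatives were scaling by the 75th percentile, cyclic loess, normexp with an offset of 50, the authors' deposited log2 table, the mean of probes, stricter and no background filters, leaving out blocks that lost signal, and a 1.5-fold threshold. The calling steps were tested on simulated data.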

Additional observations from a re-analysis of the deposited data

How the results depend on the processing

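The count of members over 2-fold different was 0 under all alternatives except no filter on background, which gave 1 (the Wtap probe not well above background on either array). The same setting gave 1 of the other pathway genes, Igf2bp1, in place of 0. The count over all named genes was 594, and it was 62 with normexp, 257 when background had to be exceeded on both arrays, 304 with blocks that lost signal left out, 1111 with no filter and 1572 at 1.5-fold. The median over the members lay between 0.0084 and 0.06, that of the other pathway genes between 0.02 and 0.06, and Fto between 0.0007 and 0.09. Of 78 values of single members, 75 moved by less than their spot error. The exceptions were Igf2bp2 (0.02 with the 75th percentile), Ythdf2 (-0.32 with the mean of probes) and Wtap (0.21 without the blocks). For these 3 the alternative uses another scale or another probe. The tally does not measure stability, since many values could not move. The stricter filter and no filter on background returned the main value for every member. The authors' table rests on quantile normalization too, and the mean of probes cannot change the 5 members tested with 1 probe. With spot errors of 0.20 to 0.25, the sign changes of Wtap with the mean of probes and of Ythdf1 also count as not moved. The largest gap between probes of a member lay between 0.33 and 0.68, and leaving out blocks left no pair of probes. No paired analysis was possible because each condition has 1 array.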

Other observations

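Fmr1, a listed reader whose values fell outside the naming rule and which was chosen after its values were seen, had 3 probes well above background on both arrays, with log2 differences of 0.13, 0.29 and 0.29 and a spot error of 0.20 each. The value of 0.13 is that of the brightest probe and is within its spot error. Of named probes in the same range of signal, 16.7% were at least as high as this probe. For the dimmer Fmr1 probes the shares were 8.73% and 8.40%, all counted in the upward direction only. Fmr1 encodes FMRP, an RNA-binding translational repressor. The 3 probes of Srsf3, a splicing factor recruited by YTHDC1 and likewise chosen after its values were seen, were at -0.21, 0.02 and 0.21.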
